A study of Mus musculus with 12 samples.

Results

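The 92 genes described here carry the symbols of subunits of the mitochondrial respiratory chain and ATP synthase. They were taken by a name pattern from the 21956 protein-coding genes of the tables (Nduf with a, b, c, s or v and a digit, Uqcr, Cox4 to Cox8, Atp5, and the mt-Nd, mt-Co, mt-Atp and mt-Cytb genes). Cox7a2l, which carries a Cox symbol and serves in supercomplex assembly, was left out. Of the 92, 79 are nuclear genes and 13 are encoded in mitochondrial DNA (mtDNA). By symbol the nuclear genes fall into 37 of complex I, 8 of complex III, 17 of complex IV and 17 of complex V. The pattern does not match Cyc1 or Ndufab1, and it counts Ndufa4, known as a subunit of cytochrome c oxidase, in complex I. It also takes in Atp5s and Atp5sl, which are not structural subunits.

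The tissue was mammary gland (4th inguinal), taken on day 17 of pregnancy from mice of the outbred ICR stock, and its RNA was sequenced in 3 groups of 4 libraries. The Control group is named for a control diet, and the labels say no more of it. The Met group ate methionine-deficient food from the day the pregnancy began and received methionine by injection into the peritoneum, namely 35% of the control diet's content. In Met-Met the mice had the same food and injections, with 25% of the injected methionine given as methionyl-methionine, a dipeptide. Against Control, the amount of methionine, the food and the injections cannot be told apart. Nothing in the labels says that each library came from a mouse of its own, so a p-value speaks for the spread between libraries alone, and that may be technical. The whole gland was taken: in bulk tissue, fewer cells of a type and less RNA per cell cannot be told apart.

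Complex I (NADH dehydrogenase), complex III (cytochrome bc1) and complex IV (cytochrome c oxidase) pass electrons from NADH to oxygen and pump protons across the inner mitochondrial membrane. Complex V, the ATP synthase, lets the protons back and makes ATP. All 4 complexes are built from subunits of both genomes, and the mtDNA genes are cut from long transcripts read from either strand. In pregnancy the mammary epithelium grows and prepares to make milk, which needs ATP, while fat cells fill the rest of the gland.

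The nuclear genes share no common promoter, but several letter patterns are known to recur in front of them. RefSeq windows on GRCm38.p6, from 250 bases before to 50 bases after the start site, were found for 65 of the 79 nuclear genes (71 windows). Both strands were searched for GCGCA, any base and GCGC in a row, the letters bound by the factor NRF1, for CCGGAAG, bound by ETS factors such as GABP, and for AAGATGGC, bound by YY1. The NRF1 letters stood in 16 of the 71 windows (22.5%), against 4.6% of 32851 windows of all genes. ETS letters stood in 14 (19.7%, against 8.86%) and YY1 letters in 12 (16.9%, against 2.75%). ETS and YY1 matches shared bases in 0 of the windows. At least 1 of the 3 was present for 35 genes and none for 30. The windows below show 1 holder of each pattern, the one with the smallest p between Met and Control, and Atp5g1, which had the largest nuclear fold change between Met-Met and Control and holds none of the 3. They are written 5′ to 3′ on the gene's strand, which is the minus strand in all 4, with the matching letters in capitals; each match reads on the opposite strand.
Ndufa6, NRF1 letters, chr15:82354242-82354541: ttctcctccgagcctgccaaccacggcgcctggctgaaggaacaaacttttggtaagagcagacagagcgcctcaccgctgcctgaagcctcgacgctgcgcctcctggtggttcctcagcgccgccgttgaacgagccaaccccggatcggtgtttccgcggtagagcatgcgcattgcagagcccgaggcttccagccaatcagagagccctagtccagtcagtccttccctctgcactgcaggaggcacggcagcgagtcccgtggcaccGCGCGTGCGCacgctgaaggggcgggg
Ndufb6, ETS letters, chr4:40279372-40279671: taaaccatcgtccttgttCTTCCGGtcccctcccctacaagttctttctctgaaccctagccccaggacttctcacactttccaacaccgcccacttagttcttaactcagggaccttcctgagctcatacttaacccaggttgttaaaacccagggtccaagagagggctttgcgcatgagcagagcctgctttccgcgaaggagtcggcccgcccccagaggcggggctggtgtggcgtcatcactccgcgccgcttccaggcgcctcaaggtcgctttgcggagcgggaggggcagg
Atp5f1 (RefSeq Atp5pb), YY1 letters, chr3:105959214-105959513: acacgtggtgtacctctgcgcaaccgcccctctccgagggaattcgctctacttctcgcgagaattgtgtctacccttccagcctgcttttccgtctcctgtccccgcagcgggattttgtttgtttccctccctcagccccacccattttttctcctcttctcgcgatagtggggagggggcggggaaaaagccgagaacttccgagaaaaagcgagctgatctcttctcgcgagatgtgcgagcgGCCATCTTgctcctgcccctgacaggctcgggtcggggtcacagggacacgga
Atp5g1, no match, chr11:96075582-96075881: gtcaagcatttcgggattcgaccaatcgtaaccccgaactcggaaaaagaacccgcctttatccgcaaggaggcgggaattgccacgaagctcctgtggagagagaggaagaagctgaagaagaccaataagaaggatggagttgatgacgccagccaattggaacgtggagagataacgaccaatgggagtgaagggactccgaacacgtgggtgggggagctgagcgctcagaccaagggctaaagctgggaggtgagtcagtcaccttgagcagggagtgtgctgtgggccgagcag

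Values are FPKM, fragment numbers corrected for transcript length and for the size of the library, summed over the transcripts of a gene and divided by a factor for each library (0.835 to 1.23) that sets the libraries to a common median. The number of reads is not known, so the depth behind a value is not known either. Libraries differed in ways the groups do not describe. B cell markers had a mean of 2.63 to 3.14 on the log2(FPKM + 1) scale in Control 1 to 3. It was 1.43 to 1.44 in Met 4 and in replicates 1 and 3 of Met-Met, and 0.0725 to 0.323 in the remaining 6 libraries. The noncoding gene Gm26917 stood at 9013 to 9305 FPKM as deposited in Met 3, Met 4 and Met-Met 2 and at 72.3 to 99.2 elsewhere. In Met 2, skeletal muscle markers summed to 339 FPKM (3.05 to 9.57 elsewhere) and skin keratinocyte markers to 52.4 (0.808 to 2.71 elsewhere). Luminal epithelial markers were present in every library (summed 882 to 1207 FPKM). Adipocyte markers summed to 1868 to 2255 FPKM in Control, 1046 to 1404 in Met and 540.4 to 1402 in Met-Met, and fibroblast markers to 1020 to 1330, 463 to 599.7 and 839 to 1261.

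In the summed values, transcripts of both genomes were higher in Met than in Control. Nuclear members together made up 6531, 6381, 6981 and 6962 scaled FPKM in Control 1 to 4, 8842, 9377, 8021 and 7945 in Met 1 to 4, and 8177, 6893, 8079 and 8865 in Met-Met 1 to 4. All Met libraries were above all Control libraries, and Met-Met 2 lay within the Control range. The 13 mtDNA genes summed to 38817, 39392, 38309 and 50523 in Control, 60582, 64786, 64856 and 49929 in Met, and 39141, 41812, 43329 and 49286 in Met-Met. Here Control 4 lay above Met 4, and the other 3 libraries of Control lay below all of Met. The mtDNA sum was 6.22 ± 0.75 times the nuclear sum in Control, 7.03 ± 0.76 in Met and 5.44 ± 0.53 in Met-Met (SD, n = 4 each).

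The direction of these sums depends on the scale. As a share of all FPKM in a library, nuclear members took 1.45% ± 0.17 in Control, 1.29% ± 0.13 in Met and 1.49% ± 0.16 in Met-Met. The mtDNA genes took 9.02% ± 1.33, 9.04% ± 0.54 and 8.08% ± 0.83 (SD, n = 4 each), and on that scale neither sum was higher in Met beyond its spread. With FPKM as deposited, all genes tested had a median log2 fold change of −0.25 between Met and Control, and every change given below is relative to the scaled median.

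**Figure D1:**
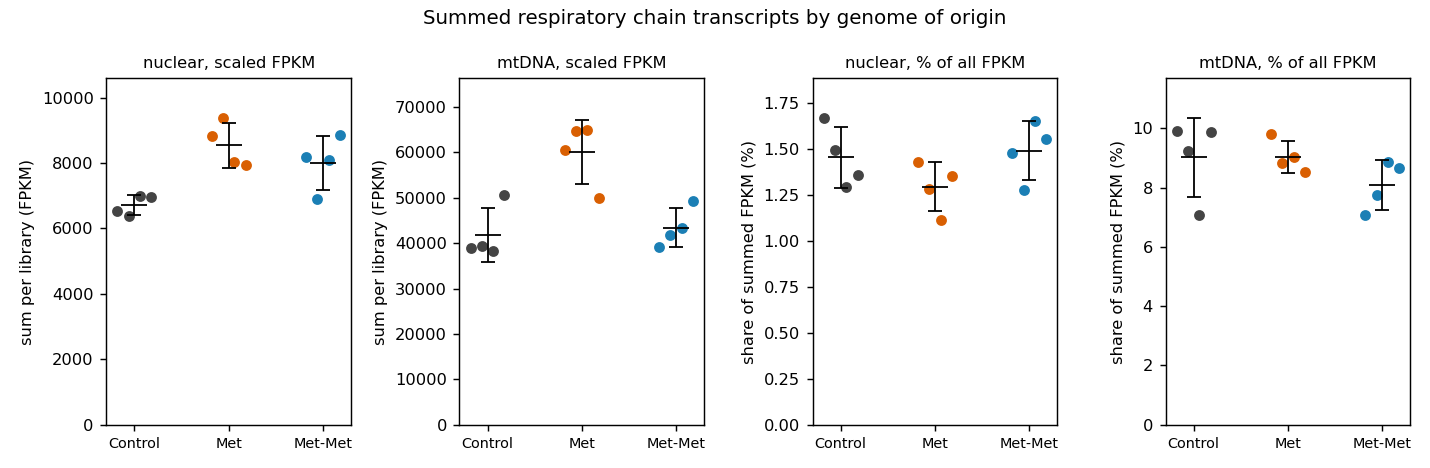
Summed FPKM of the 79 nuclear and 13 mtDNA genes in each library (points), with the mean and SD of 4 libraries per group; the 2 panels on the left give scaled FPKM and the 2 on the right the percent of all FPKM in the library. Met stands above Control in scaled FPKM for the nuclear genes (8546 ± 687 against 6714 ± 304), and not in percent (1.29% ± 0.13 against 1.45% ± 0.17).

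Between Met and Control, limma called 40 of 75 tested nuclear members higher and 1 lower in Met, beside 13.6% of all 11809 genes tested called higher and 14.8% lower. In 71 of the 75 the fold change was positive, and its median was 0.31 on the log2(FPKM + 1) scale, against 0.01 for all genes tested. The groups did not overlap for 42 members higher in Met, where 13.5% of all genes had such a pattern, and for 1 lower, against 13.3%. All 4 complexes took part: 20 of 37 tested members rose in complex I, 5 of 8 in complex III, 7 of 13 in complex IV and 8 of 17 in complex V. The class called core here takes in catalytic and cofactor-carrying subunits, and in complex V also Atp5c1, Atp5d, Atp5e, Atp5g1, Atp5g2 and Atp5g3. Core subunits rose in 8 of 16 cases (median 0.26) and accessory subunits in 31 of 53 (median 0.34). The counts depend on the scaling. With FPKM as deposited 5 nuclear members were called higher and 2 lower, with a median of 0.0006, where 2.98% and 36.4% of all genes were. After quantile normalization, which gives genes of the same rank the same value in every library, they were 15 and 1, with a median of 0.15, where 12.5% and 12.3% were. Both Atp5s and Atp5sl, not subunits themselves, missed the threshold, with −0.02 and 0.15. Without Met 1 the count of higher members was 26, where 9.98% of all genes were called higher. Without any other single library it was 27 to 41, where 8.59% to 14.8% were.

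The calls against Control also went with other features of the libraries. Of the 10 adipocyte markers, 7 were called lower in Met and 8 in Met-Met, and of 8 fibroblast markers 6 and 1. All 5 tested erythrocyte markers were called lower in both groups. In Met and in Met-Met respectively, 6 and 1 of 7 macrophage markers were called lower, 3 and 2 of 6 endothelial, 3 and 1 of 8 myoepithelial (with 1 higher in each), 3 and 0 of 8 B cell and 2 and 0 of 7 T cell markers. Of 9 luminal markers 0 were called in Met and 1 was higher in Met-Met. Between Met-Met and Met, 5 of 8 fibroblast, 5 of 7 macrophage and 3 of 8 myoepithelial markers were called higher in Met-Met. Of the others, 2 adipocyte markers and 1 luminal marker were also higher, and 1 myoepithelial and 1 adipocyte marker were lower. Endothelial, erythrocyte and lymphocyte markers gave no call there. The part of fibroblasts, macrophages or myoepithelial cells in the member calls of that comparison was not tested. With the adipocyte marker mean in the fit, the nuclear median was 0.57 between Met and Control and 0.50 between Met-Met and Control. Of the members 0 were called, and of all genes 10 and 0. The adipocyte mean was 6.15 to 6.51 in Control, 4.89 to 5.16 in Met and 4.11 to 5.47 in Met-Met. Because neither group overlapped Control in it, this fit can hardly separate the mean from the groups, and the lost calls decide nothing. With those 6 libraries set aside in which lymphocyte markers were present, Control 4 was the one Control library left, and its spread was taken from the other groups. Then 0 members were called, among 8 and 5 calls over all genes.

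In complex I the smallest p-values belonged to Ndufa2, an accessory subunit of the arm that takes up NADH, to Ndufv2, an iron-sulfur core subunit of that arm, and to Ndufa1, a small membrane subunit needed for assembly. In scaled FPKM, Ndufa2 stood at 47.8, 47.8, 52.2 and 52.1 in Control 1 to 4, 79.6, 78.5, 70.6 and 73.2 in Met 1 to 4 and 54.6, 61.0, 65.4 and 67.6 in Met-Met 1 to 4. All Met libraries were above all Control libraries (log2 fold change 0.58, SE 0.08, adjusted p = 0.000624), and those of Met-Met lay between them. Ndufv2 stood at 45.1, 49.7, 47.9 and 46.4 in Control 1 to 4, 68.9, 66.8, 67.2 and 70.8 in Met 1 to 4 and 62.7, 56.8, 69.0 and 72.2 in Met-Met 1 to 4. Met and Met-Met were both above Control without overlap (Met against Control log2 fold change 0.52, SE 0.08, adjusted p = 0.000985). Ndufa1 stood at 97.4, 107, 130.2 and 119 in Control 1 to 4, 168, 198, 185 and 157 in Met 1 to 4 and 118, 109, 116 and 131 in Met-Met 1 to 4. Its Met libraries stood above all others (log2 fold change 0.64, SE 0.11, adjusted p = 0.00157), and Met-Met overlapped Control. Ndufb6, an accessory subunit of the membrane arm that was picked here after its values were seen, had the largest rise in the complex, from 66.1 ± 10.7 in Control to 113 ± 15.9 in Met (SD, n = 4; log2 fold change 0.77). Core subunits Ndufs7 (0.43) and Ndufs8 (0.40) rose too. The core subunits Ndufs1, Ndufs3 and Ndufv1 did not pass the test, with log2 fold changes of 0.15, 0.25 and 0.07.

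Among complex III members, Uqcrh, the hinge protein beside cytochrome c1, stood at 158, 155, 172 and 163 in Control 1 to 4, 258, 286, 230.5 and 213 in Met 1 to 4 and 186, 169.9, 182 and 219 in Met-Met 1 to 4. Met was above Control without overlap (log2 fold change 0.60, SE 0.11, adjusted p = 0.00222), but with only the highest transcript of each gene the value was 0.27 and the adjusted p 0.237. Uqcrb, a small subunit near the ubiquinone site, stood at 136, 129.9, 131 and 124 in Control 1 to 4, 187, 193, 166 and 179 in Met 1 to 4 and 172, 158, 199 and 189 in Met-Met 1 to 4. Its Met and Met-Met libraries overlapped each other and were all above Control (Met against Control log2 fold change 0.47, SE 0.09, adjusted p = 0.00255). Uqcr10 also rose (0.43), as did Uqcr11 (0.36) and Uqcrfs1, the Rieske iron-sulfur subunit (0.26). The 2 large proteins facing the matrix, Uqcrc1 (0.16) and Uqcrc2 (0.18), counted here as accessory, missed the threshold.

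In complex IV, Cox7a2, the form of subunit 7a made in most tissues, stood at 113, 112, 111 and 113 in Control 1 to 4, 175, 185, 157 and 139.8 in Met 1 to 4 and 126, 117, 146 and 163 in Met-Met 1 to 4. The Control libraries were within 3 FPKM of each other and all Met libraries lay above them (log2 fold change 0.54, SE 0.11, adjusted p = 0.0053). Cox7b, another small accessory subunit, stood at 106, 102, 109.8 and 104 in Control 1 to 4, 153, 162, 133 and 167 in Met 1 to 4 and 113, 95.9, 138 and 138 in Met-Met 1 to 4. Met was again clear of Control (log2 fold change 0.54, SE 0.12, adjusted p = 0.00649). Cox5a, Cox5b, Cox7c and Cox8a were also higher, by 0.34, 0.37, 0.48 and 0.34. Cox4i1, the most abundant nuclear member, varied widely within groups, from 271 to 503 in Control and 347 to 685 in Met, and did not pass the test (log2 fold change 0.31, SE 0.23, adjusted p = 0.342).

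In complex V, Atp5g1, 1 of 3 genes for the c subunit of the proton-driven ring, stood at 40.8, 52.2, 56.4 and 46.1 in Control 1 to 4, 78.7, 85.3, 83.0 and 69.7 in Met 1 to 4 and 112, 84.4, 95.2 and 103 in Met-Met 1 to 4. All Met and Met-Met libraries were above all of Control, and Met-Met 1, 3 and 4 were above all of Met (Met against Control log2 fold change 0.69, SE 0.12, adjusted p = 0.00166). Atp5g3, which codes for the same mature protein, rose by 0.28, and the third, Atp5g2, gave 0.17 without passing. Atp5l, subunit g, stood at 131, 131, 145 and 138 in Control 1 to 4, 191, 235, 198 and 183 in Met 1 to 4 and 162, 139, 169.9 and 183 in Met-Met 1 to 4, and Met was above Control (log2 fold change 0.56, SE 0.10, adjusted p = 0.00253). Atp5f1, subunit b of the stalk that holds the head still, stood at 107, 105, 110.4 and 118 in Control 1 to 4, 159.9, 156, 143 and 141 in Met 1 to 4 and 149, 132, 155 and 166 in Met-Met 1 to 4. No library of Met or Met-Met was as low as any of Control (Met against Control log2 fold change 0.45, SE 0.08, adjusted p = 0.0032). Of the catalytic head, Atp5a1 (0.26) and Atp5b (0.29) rose, and Atp5c1, Atp5d and Atp5e did not pass, with 0.20, 0.13 and 0.20.

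The promoter letters shown above were set beside the calls, with no test. Between Met and Control 8 of 15 tested NRF1 holders, 7 of 14 ETS holders and 5 of 11 YY1 holders rose, and 17 of 28 tested genes with none of the letters. Between Met-Met and Control the counts were 5, 3, 5 and 7 of the same genes. These are counts of letters in fixed windows, and no factor's binding was measured.

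**Figure D2:**
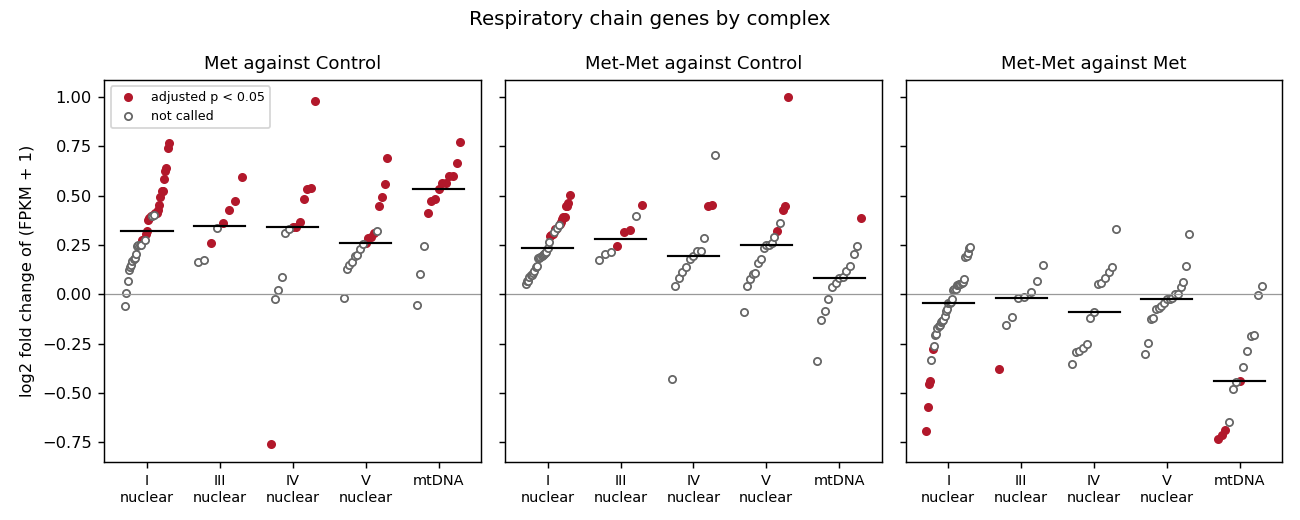
Log2 fold change of (FPKM + 1) for each tested gene in the 3 comparisons, by complex for nuclear genes and together for the 13 mtDNA genes; filled points passed an adjusted p of 0.05 in limma, and lines mark medians. Nuclear points lie mostly above 0 against Control in both panels (71 and 73 of 75), while the mtDNA median is 0.53 in Met and 0.08 in Met-Met.

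Between Met-Met and Control, limma called 24 of 75 nuclear members higher and 0 lower (1 at an unadjusted p under 0.05, Cox7a1), beside 10.8% and 9.41% of all genes tested. The fold change was positive in 73 of 75 with a median of 0.23, where the median of all genes was below 0.01 in size. Groups were apart for 25 members higher in Met-Met, beside 15.1% of all genes, and for 1 lower, beside 11.9%. Complex I gave 14 of the calls, complex III 4, complex IV 2 and complex V 4. With FPKM as deposited 3 were higher (median 0.10, with all genes at −0.12), where 4.23% of all genes were, and after quantile normalization 7 were (median 0.07), where 9.82% were. On both of these scales the share of members called is near that of all genes. Core subunits rose in 8 of 16 cases (median 0.27) and accessory ones in 16 of 53 (median 0.24). The count was 14 without Control 1, 12 without Control 2, 13 without Met-Met 1 and 12 without Met-Met 4. Over all genes 6.11%, 6.38%, 7.53% and 7.45% were called higher in these fits. Met-Met 2 was the lowest Met-Met library in the nuclear sum, and the count without it was 35, where 8.82% of all genes were.

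Ndufs8, an iron-sulfur core subunit of complex I, stood at 29.7, 29.1, 30.9 and 31.1 in Control 1 to 4, 44.5, 39.0, 37.2 and 39.7 in Met 1 to 4 and 41.5, 38.7, 39.7 and 46.8 in Met-Met 1 to 4. All 8 libraries of Met and Met-Met were above Control (Met-Met against Control log2 fold change 0.45, SE 0.08, adjusted p = 0.00334). Ndufv2 rose by 0.45 and Ndufa11, an accessory membrane subunit, by 0.46 (19.0 ± 2.47 in Met-Met against 13.5 ± 1.13 in Control). Ndufs1, the largest iron-sulfur core subunit, noticed after the values were seen, stood at 32.9, 31.1, 34.1 and 34.1 in Control 1 to 4, 33.6, 36.9, 34.7 and 41.8 in Met 1 to 4 and 44.6, 40.2, 43.8 and 44.6 in Met-Met 1 to 4. Met-Met was above Control without overlap (log2 fold change 0.38, SE 0.08, adjusted p = 0.00719), and Met overlapped both.

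Of complex III, Uqcrb rose by 0.45. Uqcrc2 stood at 67.5, 63.4, 66.7 and 72.9 in Control 1 to 4, 70.0, 84.3, 71.2 and 81.2 in Met 1 to 4 and 88.3, 77.1, 84.7 and 90.4 in Met-Met 1 to 4 and Met-Met was above Control (log2 fold change 0.33, SE 0.09, adjusted p = 0.0202), although the adjusted p was 0.053 without Control 1, 0.066 without Control 2, 0.0537 without Met-Met 1 and 0.0559 without Met-Met 4. Uqcr10 (log2 fold change 0.31, SE 0.10, adjusted p = 0.0484) lost its call without any single library other than Met-Met 2, with an adjusted p of up to 0.125. In complex IV, Cox5a and Cox5b, a pair of matrix-side subunits, were the calls. Cox5a stood at 104, 92.9, 108 and 119 in Control 1 to 4, 137, 140.1, 131 and 129 in Met 1 to 4 and 153, 126, 133 and 172 in Met-Met 1 to 4 (log2 fold change 0.45, SE 0.11, adjusted p = 0.0124). Cox5b stood at 88.8, 72.1, 65.7 and 78.4 in Control 1 to 4 and 102, 93.1, 107 and 115 in Met-Met 1 to 4, with Met at 83.4 to 107 (log2 fold change 0.45, SE 0.11, adjusted p = 0.0159). For both genes every Met-Met library was above every Control library. In complex V, Atp5g1 had the largest fold change of the tested nuclear members (log2 fold change 1.00, SE 0.12, adjusted p = 0.000526). Atp5f1 rose by 0.45 and Atp5g3 by 0.43, from 209 ± 15.1 to 282 ± 31.3.

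**Figure D3:**
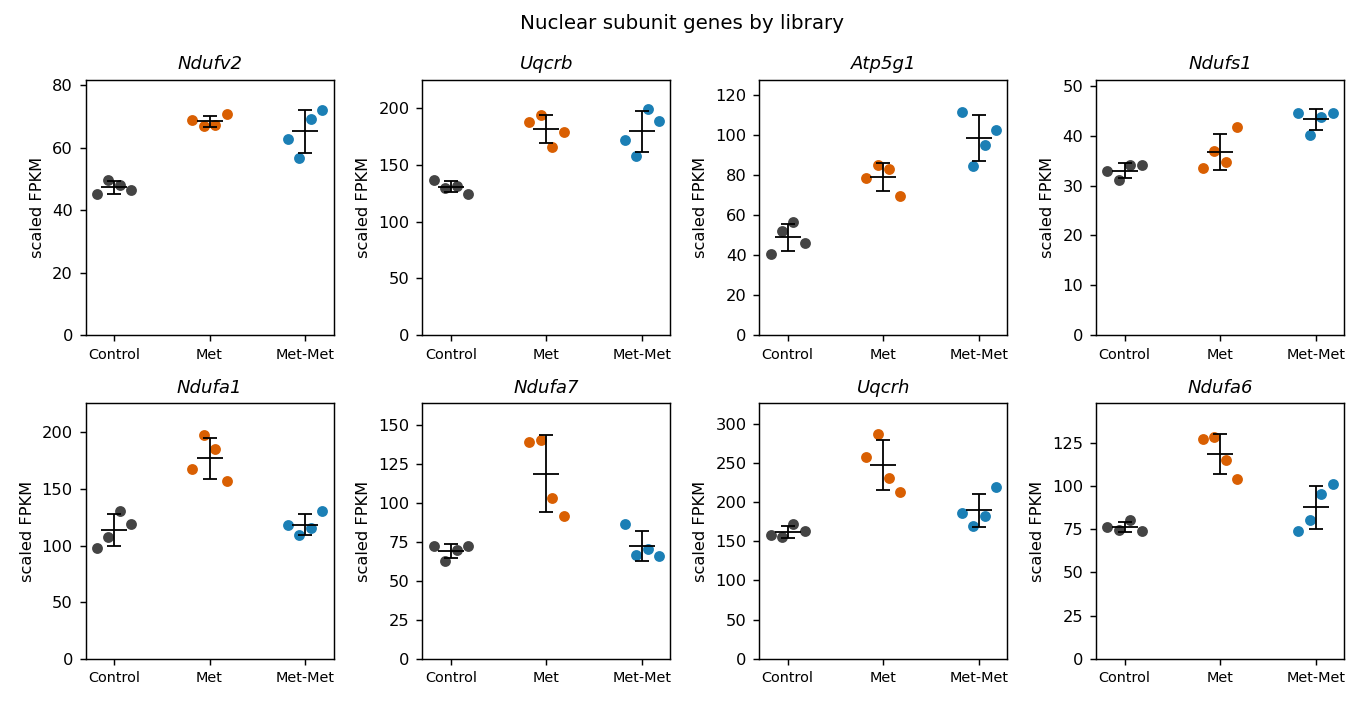
Scaled FPKM of 8 nuclear members in each library (points), with mean and SD of 4 libraries per group. In the top row (Ndufv2, Uqcrb, Atp5g1, Ndufs1) all Met-Met libraries lie above Control, and in the bottom row (Ndufa1, Ndufa7, Uqcrh, Ndufa6) the mean of Met is higher than those of both other groups, with Ndufa1 at 177 ± 18.3 in Met against 114 ± 14.2 in Control and 119 ± 8.94 in Met-Met.

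Between Met-Met and Met, limma called 6 nuclear members lower in Met-Met and 0 higher (3 at an unadjusted p under 0.05), beside 5.66% and 5.94% of all genes tested. The median over the 75 was −0.04. With FPKM as deposited it was 0.13, where that of all genes was 0.15, and 5 members were called higher and 2 lower, where 13.2% and 2.32% of all genes were. After quantile normalization 1 was higher and 7 were lower, where 5.74% and 4.89% were. The groups were apart for 5 members lower and 1 higher in Met-Met, beside 7.81% and 8.43% of all genes. The 6 called were the accessory complex I subunits Ndufa1, Ndufa2, Ndufa6, Ndufa7 and Ndufc2 and the complex III subunit Uqcrh. Of these, Ndufa2 and Ndufc2 fall outside the rule by which genes are named and are given to complete the count. Only 2 were called without Met 1, without Met 2, without Met-Met 1 or without Met-Met 2, and 1 higher member was called without Met 4.

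Ndufa7 stood at 72.5, 63.0, 70.1 and 72.2 in Control 1 to 4, 139, 140.2, 104 and 91.8 in Met 1 to 4 and 86.6, 66.4, 70.4 and 66.0 in Met-Met 1 to 4. Met-Met lay in the range of Control apart from Met-Met 1, and Met above both (log2 fold change −0.69, SE 0.14, adjusted p = 0.0107). Ndufa1 gave the same order (log2 fold change −0.57, SE 0.11, adjusted p = 0.0071). Ndufa6, which binds the acyl carrier protein of complex I, stood at 76.4, 74.7, 80.3 and 74.0 in Control 1 to 4, 127, 128, 115 and 104 in Met 1 to 4 and 73.7, 80.5, 95.3 and 101 in Met-Met 1 to 4. Its Met-Met libraries reached up to the lowest Met library without overlap (log2 fold change −0.44, SE 0.11, adjusted p = 0.0223), and the adjusted p was 0.0607 without Met 1, 0.0565 without Met 2, 0.0562 without Met-Met 1 and 0.0568 without Met-Met 2. Uqcrh (log2 fold change −0.38, SE 0.11, adjusted p = 0.0386) lost its call without any 1 of 10 of the 12 libraries, with an adjusted p of up to 0.0942; Met 4 and Met-Met 4 were the exceptions. Atp5g1, higher in Met-Met than in Met by 0.31, did not pass (0.106).

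Most mtDNA genes were higher in Met. Against Control, limma called 10 of 13 higher in Met and 0 lower at either an adjusted or an unadjusted p under 0.05, beside 13.6% of all genes tested called higher and 14.8% lower, with 12 of 13 fold changes positive and a median of 0.53. In Met-Met, 1 of 13 was called higher and 0 lower (1 at an unadjusted p under 0.05), beside 10.8% and 9.41% of all genes, with a median of 0.08. That is no larger a share than among all genes. Met-Met against Met gave 4 lower and 0 higher at either p, beside 5.66% and 5.94%, with a median of −0.44. Groups did not overlap for 5 genes higher in Met than in Control (13.5% of all genes), for 4 higher in Met-Met than in Control (15.1%) and for 5 lower in Met-Met than in Met (7.81%). On the deposited scale 1 mtDNA gene was called higher in Met (median 0.22), where 2.98% of all genes were. After quantile normalization 1 was as well (median 0.04), where 12.5% were, and mt-Co1, mt-Co2, mt-Cytb, mt-Nd2 and mt-Nd5 then had fold changes below 0 in Met, down to −0.14. The call counts also move with single libraries. For Met against Control the count was 6 without any of Control 1 to 3 or Met 1 to 3. For Met-Met against Control the count was 0 without any of Control 1 to 4 or Met-Met 2 to 4, where 6.11% to 9.96% of all genes were. For Met-Met against Met it was 0 without Met 1, Met 3 or Met-Met 1, 1 without Met 2 or Met-Met 2, 2 without Met-Met 3, 7 without Control 4 and 8 without Met 4. Over all genes 10.1% were called lower without Met 4 and 3.22% to 5.50% in the other fits named.

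In complex I, mt-Nd1 stood at 3059, 3110.1, 2904 and 3034 in Control 1 to 4, 3939.5, 4571, 4966 and 4931 in Met 1 to 4 and 3467, 3972, 3899 and 4559 in Met-Met 1 to 4. All of Met and Met-Met stood above Control (Met log2 fold change 0.60, SE 0.11, adjusted p = 0.00323). For Met-Met the values were log2 fold change 0.39, SE 0.11, adjusted p = 0.0332, and the adjusted p was 0.0585 to 0.0941 without any 1 of Control 1 to 4, Met-Met 2, Met-Met 3 or Met-Met 4. The neighbouring mt-Nd2 stood at 1472, 1446, 1242 and 1403 in Control 1 to 4, 1342, 1591, 1468 and 1577 in Met 1 to 4 and 1500.0, 1584, 1479 and 1570.3 in Met-Met 1 to 4. Met did not differ from Control beyond the spread (log2 fold change 0.10, SE 0.09, adjusted p = 0.434). Met-Met lay above Control without overlap and was not called (0.14). mt-Nd3 stood at 1547, 1501, 1621 and 1932 in Control 1 to 4, 3241, 2630.0, 2809 and 1914 in Met 1 to 4 and 1380.4, 1564, 1719 and 1832 in Met-Met 1 to 4. Met 4 lay inside the Control range and the other Met libraries above it (Met log2 fold change 0.66, SE 0.16, adjusted p = 0.0102). Met-Met was below Met without overlap (log2 fold change −0.69, SE 0.16, adjusted p = 0.0186), with an adjusted p of 0.0523 without Met 1, 0.0534 without Met 3 and 0.0506 without Met-Met 1.

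mt-Nd4 (0.48, adjusted p = 0.0115) and mt-Nd4l (0.56, 0.0267), which overlap in the genome, were called higher in Met. In Met-Met they gave 0.12 and 0.08. mt-Nd5 ranged over 1284 to 1508 in Control, 1572 to 1795 in Met and 1599 to 1806 in Met-Met and just missed the threshold (0.25, adjusted p = 0.0597). mt-Nd6, the 1 member read from the other strand, stood at 911, 1054, 885 and 991 in Control 1 to 4, 817, 1070.4, 1071 and 774 in Met 1 to 4 and 591, 701, 878 and 903 in Met-Met 1 to 4. The 3 groups overlapped (Met log2 fold change −0.05, SE 0.16, adjusted p = 0.831; Met-Met log2 fold change −0.34, SE 0.16, adjusted p = 0.142). It overlaps mt-Nd5, and whether reads were counted by strand is not given in the sources used here, so the counts of the 2 genes may mix.

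The single mtDNA gene of complex III, mt-Cytb, stood at 4105, 4109, 3827 and 4263 in Control 1 to 4, 5345, 5726, 5082 and 5546 in Met 1 to 4 and 4397, 4403, 4668 and 5357 in Met-Met 1 to 4. Met was above Control (log2 fold change 0.41, SE 0.10, adjusted p = 0.0119). Met-Met did not overlap Control either and was not called (0.20, adjusted p = 0.177). In complex IV, mt-Co1, the catalytic subunit and most abundant member of all, stood at 6669, 6829, 6876 and 8267 in Control 1 to 4, 9438, 11229.6, 10288 and 8804 in Met 1 to 4 and 6959, 7017, 7123 and 8216 in Met-Met 1 to 4. Met was above Control without overlap (log2 fold change 0.47, SE 0.12, adjusted p = 0.0151) and Met-Met below Met (log2 fold change −0.44, SE 0.12, adjusted p = 0.0399). The latter call was lost, with an adjusted p of 0.0548 to 0.11, without Control 2 or without any 1 library of Met or Met-Met other than Met 4. mt-Co3 stood at 3102, 3052, 3255 and 4495 in Control 1 to 4, 6496, 6398, 6727 and 4236 in Met 1 to 4 and 2997, 3423, 3710.1 and 4292 in Met-Met 1 to 4. It had the largest rise of the 13 (Met log2 fold change 0.77, SE 0.18, adjusted p = 0.00951), though Control 4 was above Met 4. Met-Met was lower than Met (log2 fold change −0.71, SE 0.18, adjusted p = 0.0281), with an adjusted p of 0.0616 to 0.0787 without any 1 of Met 1 to 3, Met-Met 1 or Met-Met 2. mt-Co2 ranged over 3141 to 4953 in Control, 3989 to 6289 in Met and 3608 to 4311 in Met-Met (Met log2 fold change 0.53, SE 0.17, adjusted p = 0.0396).

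The complex V genes mt-Atp8 and mt-Atp6 overlap and share one transcript. mt-Atp6 stood at 5489, 5581, 5728 and 8485 in Control 1 to 4, 10617, 10491, 10519.8 and 6722 in Met 1 to 4 and 4904, 5343, 5943 and 6625 in Met-Met 1 to 4. Control 4 exceeded Met 4, and all Met-Met libraries were below all of Met (Met log2 fold change 0.60, SE 0.19, adjusted p = 0.0353; Met-Met against Met log2 fold change −0.73, SE 0.19, adjusted p = 0.0301). Without any 1 of Met 1 to 3 or Met-Met 1 to 3 the latter adjusted p was 0.051 to 0.0814. mt-Atp8 gave 0.57 for Met against Control (adjusted p = 0.0486) and −0.65 for Met-Met against Met (0.0514). The Met calls of mt-Atp6, mt-Atp8, mt-Co2 and mt-Nd4l were lost without any 1 of Control 1 to 3 or Met 1 to 3, with adjusted p-values of 0.0606 to 0.117. Those of mt-Atp8 and mt-Co2 also rose to at most 0.0600 without single Met-Met libraries (Met-Met 2, 3 or 4 for mt-Atp8, Met-Met 1 or 2 for mt-Co2).

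In the order of the genome, the fold changes between Met and Control were 0.47 to 0.77 over the 8 genes from mt-Co1 to mt-Nd4. They were 0.60 at mt-Nd1, 0.10 at mt-Nd2, 0.25 at mt-Nd5, −0.05 at mt-Nd6 and 0.41 at mt-Cytb. Over the same 8 genes, a stretch chosen after the values were seen, 2 libraries stood apart from their groups. Control 4 was 1.22 to 1.55 times the mean of Control 1 to 3 for the 8, and 1.00 to 1.06 times for the other 5. Met 4 was 0.64 to 0.85 times the mean of Met 1 to 3 for those 8, and 0.78 to 1.10 times for the others. These libraries also differ from the rest of their groups in lymphocyte markers. B cell markers summed to 0.422 FPKM in Control 4 against 46.9 to 70.1 in Control 1 to 3, and to 15.4 in Met 4 against 1.03 to 2.22 in Met 1 to 3. Met 1 to 3, whose sums are low like that of Control 4, had a median of 1.21 times Control 4 over the 13 genes (0.995 to 1.498). Met 4, whose sum is still below those of Control 1 to 3, had a median of 1.25 times their mean (0.815 to 1.63). These ratios rest on 1 library on 1 side and were not tested. In Met-Met 1 to 4 the B cell markers summed to 14.5, 0.808, 14.7 and 1.42 FPKM. The mtDNA genes there summed to 39141, 41812, 43329 and 49286. Met-Met 4, low in the markers, had the highest mtDNA sum of that group, while Met-Met 2, lowest in them, was below Met-Met 3. This relation was not tested either. Nuclear copies of mtDNA could share reads with these genes, and how such reads were counted is not given in the sources used here.

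**Figure D4:**
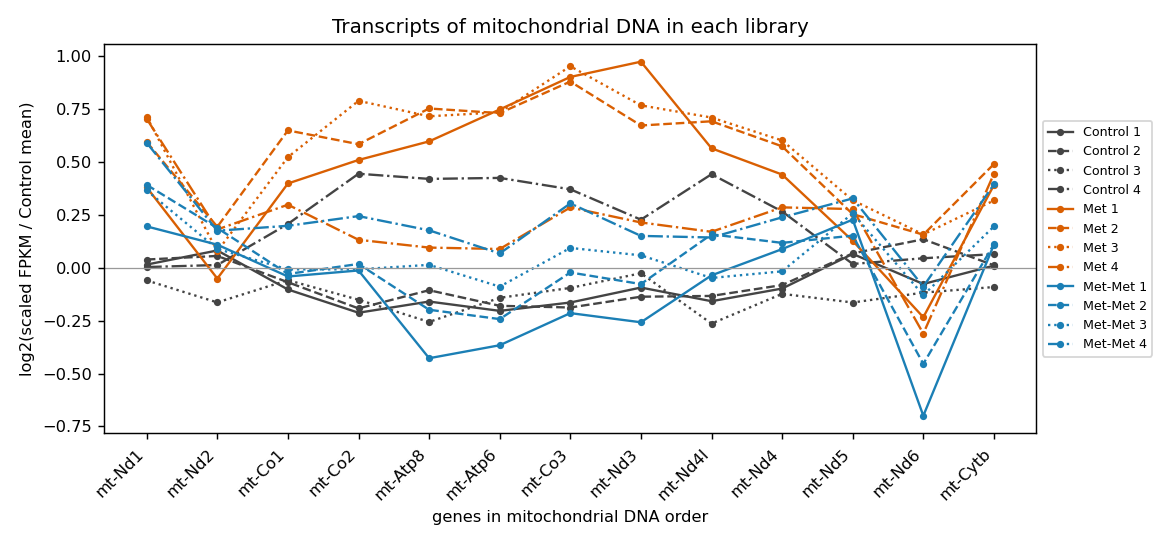
Log2 ratio of scaled FPKM to the Control mean for the 13 mtDNA genes in the order of the genome, 1 line per library. Met 1 to 3 run highest from mt-Co1 to mt-Nd4, Control 4 and Met 4 lie between the groups there, and all lines lie closer at mt-Nd2, where the fold change between Met and Control was 0.10.

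The tissue isoforms of the subunits were all low in this gland, at most 15.4 FPKM in any library. Cox7a1, the form of subunit 7a of heart, muscle and brown fat, stood at 6.72, 5.39, 6.73 and 5.16 in Control 1 to 4, 4.39, 3.85, 2.07 and 2.57 in Met 1 to 4 and 4.95, 3.36, 3.84 and 4.70 in Met-Met 1 to 4. It was the only nuclear member called lower in Met, without overlap with Control (log2 fold change −0.76, SE 0.17, adjusted p = 0.00813), while Cox7a2, its common counterpart, rose. In Met-Met it was also below every Control library but did not pass (log2 fold change −0.43, SE 0.17, adjusted p = 0.102). Cox8b, the subunit 8 isoform of the same tissues, stood at 4.44, 5.45, 2.98 and 3.39 in Control 1 to 4, 9.91, 9.77, 6.37 and 9.75 in Met 1 to 4 and 7.25, 3.30, 6.49 and 15.4 in Met-Met 1 to 4. All Met libraries were above Control (log2 fold change 0.98, SE 0.32, adjusted p = 0.039), and Met-Met spread across both. The Cox8b call was lost, with an adjusted p of 0.0513 to 0.095, without any 1 of Control 1, Control 3, Control 4, Met 1, Met 2, Met 4 or Met-Met 1, with 0.0628 when no genes were filtered and with 0.0571 for the highest transcript per gene. For Met-Met against Control the Cox8b value was 0.71 (adjusted p = 0.138), 1.01 (0.0294) without Met-Met 2 and 0.37 (0.325) without Met-Met 4, the library at 15.4 FPKM.

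Brown adipocyte markers summed to 36.8 to 89.2 FPKM in Control, 107 to 158 in Met and 52.9 to 86.6 in Met-Met. Most of that was Cidea, a lipid droplet protein that pregnant and lactating mammary epithelium also makes, at 32.4, 46.9, 58.6 and 84.1 in Control and 98.9, 155, 132 and 96.2 in Met. Of the 7 markers, 2 were called higher in Met (Cidea and Elovl3) and 1 lower (Otop1). Ucp1, the defining protein of brown fat, was at 0 to 1.13 in all libraries and highest in Control, and Zic1 was listed at 0 in all 12. Cox6a2, the heart and skeletal muscle form of subunit 6a, stood at 0.118, 0.452, 0.49 and 0.0448 in Control 1 to 4, 0.0536, 3.35, 0.05 and 0.105 in Met 1 to 4 and 0.109, 0, 0.0869 and 0.143 in Met-Met 1 to 4 and was below the level for testing. It exceeded 1 FPKM only in Met 2, where skeletal muscle markers summed to 339 FPKM, against 3.05 to 9.57 in the other 11 libraries. Ndufa4l2, a relative of Ndufa4 known to respond to low oxygen, stood at 1.34 to 2.11 in Control, 1.54 to 1.66 in Met and 1.75 to 2.43 in Met-Met. Cox4i2, the isoform of subunit 4 known from lung, ranged over 0.976 to 1.48, 0.649 to 1.73 and 0.906 to 2.04. No comparison of these 2 genes passed the test. Cox6b2, known from testis, was at 0.419 to 1.26 in Control and 0.169 to 0.836 in Met, and Cox7b2 and Cox8c were listed at 0 in all 12 libraries. Cox6b2, Cox6a2, Cox7b2 and Cox8c are the 4 nuclear members that were too low to test. The part of fat or muscle cells in the isoform values was not tested.

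**Figure D5:**
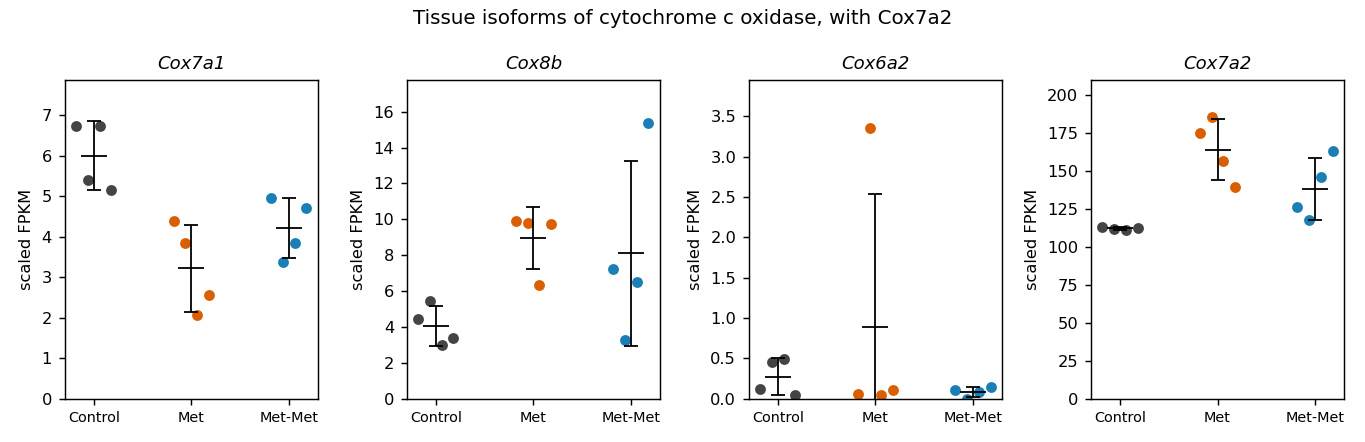
Scaled FPKM of the isoforms Cox7a1, Cox8b and Cox6a2 and of the common form Cox7a2 in each library (points), with mean and SD of 4 libraries per group; the SD bar of Cox6a2 in Met is cut at 0. Cox7a1 is lower in Met (2.07 to 4.39) than in Control (5.16 to 6.73) where Cox7a2 is higher (139.8 to 185 against 111 to 113), and Cox6a2 is raised in 1 Met library.

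Genes that work with the chain were read from fixed lists, chosen with earlier results of these data known. Of all genes tested, 13.6% were called higher in Met and 10.8% in Met-Met, and a list whose share of calls is near these is not set apart by its count. Over these lists limma called 0 members lower against Control in Met (1 at an unadjusted p under 0.05) or in Met-Met (2), and the list medians ran from 0.05 to 0.29 in Met and from −0.09 to 0.29 in Met-Met. Complex II, the 4 nuclear-encoded subunits of succinate dehydrogenase, had 1 member called higher in Met (Sdhb, 0.33) and 3 in Met-Met, Sdhd (0.33), Sdhb (0.33) and Sdhc (0.25). The Met-Met call of Sdhb was lost without Control 2 (adjusted p = 0.066) or Met-Met 4 (0.0573), and that of Sdhc, with 0.0549 to 0.0879, without any 1 of Control 2 to 4, Met-Met 1 or Met-Met 4. Sdhc was also called higher in Met-Met than in Met (0.26), with an adjusted p of up to 0.11 without any 1 of 9 libraries, all but Control 1, Met 4 and Met-Met 3. Of 7 subunits and carriers outside the set, 3 were called higher in each group, and in Met 1 of the 3 was Cox7a2l, described below. Cyc1, the cytochrome c1 of complex III, stood at 65.8 ± 4.15 in Control, 93.5 ± 7.34 in Met and 97.5 ± 12.3 in Met-Met (SD, n = 4 each; log2 fold changes 0.50 and 0.55, adjusted p = 0.00407 and 0.00359). Cycs, cytochrome c itself, stood at 27.8 ± 2.80, 42.6 ± 5.99 and 47.5 ± 9.74 in the same order (0.59 and 0.74, adjusted p = 0.011 and 0.00545). With FPKM as deposited, Cyc1 and Cycs gave 0.19 and 0.29 in Met and lost the call (adjusted p = 0.21 and 0.246). Ndufab1, the acyl carrier protein that is also a complex I subunit, rose in Met-Met (0.44), with an adjusted p of 0.0582 to 0.0627 without Control 1, Control 3 or Met-Met 1. Cox7a2l, left out of the set by its rule and called higher in Met and lower in Met-Met than in Met, was at 73.2 to 87.3 in Met and 0.995 to 2.08 in Met-Met. In Control it spanned 0.805 to 73.6, with Control 3 at the level of Met and the others at that of Met-Met. Both calls were lost without the 3 libraries with high Gm26917 (0.0575 and 0.0554).

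Of 20 assembly factors for complex IV, 8 were called higher in Met and 4 in Met-Met. Cox17, a copper chaperone, rose in Met (0.43, adjusted p = 0.00406), with 0.13 as deposited (adjusted p = 0.319). Sco2, which passes copper on to the mt-Co2 protein, also rose in Met (0.67, adjusted p = 0.00517). It was lower in Met-Met than in Met (−0.53, adjusted p = 0.032), a call lost with 0.0558 to 0.0883 without any 1 of Met 1 to 3 or Met-Met 1, 2 or 4. Coa3, needed for early steps of mt-Co1, rose by 0.29 and 0.36 in the 2 groups, with −0.01 in Met as deposited. The other 2 called in Met-Met besides Cox17 were Cox11 (0.39), with an adjusted p of 0.0539 without Control 1, and Cox19 (0.31), with 0.0614 without Control 2. Cox19 was also higher in Met-Met than in Met (0.37, adjusted p = 0.0146), but not without the 3 libraries with high Gm26917 (0.0713). For complex I, 2 of 13 factors rose in Met, near the 13.6% of all genes, and 4 in Met-Met. Ndufaf5, a factor that hydroxylates Ndufs7, stood at 4.69 ± 0.626 in Control, 5.87 ± 0.379 in Met and 7.86 ± 0.597 in Met-Met (SD, n = 4 each), and the last was above Control by 0.64 (adjusted p = 0.00125). Its calls in Met (0.28) and between Met-Met and Met (0.37) were lost without single libraries, with 0.0503 to 0.102 without any 1 of Control 2, Control 4, Met 2 to 4 or Met-Met 1 for the former and 0.0619 to 0.0755 without any 1 of Met 1, Met 3, Met-Met 1 or Met-Met 4 for the latter. Timmdc1 was the second in Met (0.26), with an adjusted p of 0.0589 to 0.137 without any 1 of 10 libraries, all but Control 4 and Met 2. In Met-Met, Timmdc1, Ndufaf2 and Ndufaf7 were the others, of which Ndufaf2 lost its call without any 1 of Control 2, Control 3 or Met-Met 1, 3 or 4 (0.0547 to 0.0915) and Ndufaf7 without Control 3 (0.0518) or Met-Met 2 (0.0524). For complex III 1 of 6 rose in each group, Uqcc2 (0.40 and 0.44), but the call was lost without any 1 of Control 1, Control 2 or Met 1 to 3 in Met (0.0561 to 0.0743) and of Control 1, Control 2, Met-Met 1 or Met-Met 4 in Met-Met (0.0519 to 0.0673). For complex V 1 of 4 rose in each. In Met it was Tmem70 (0.34), with an adjusted p of 0.0508 without Met 1. In Met-Met it was Atpif1, the inhibitor of the synthase (0.33), with 0.0663 to 0.0976 without any 1 of Control 1 to 3, Met-Met 3 or Met-Met 4.

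Of 17 tested genes that copy and transcribe mtDNA or stabilize its RNA, 2 rose in Met and 2 in Met-Met, which is about the share of all genes called (13.6% and 10.8%). Slirp, which with Lrpprc protects mtDNA transcripts, stood at 6.45 ± 1.05 in Control, 9.99 ± 1.14 in Met and 9.38 ± 1.28 in Met-Met (SD, n = 4 each; 0.57 and 0.48). Its adjusted p was 0.00578 in Met and 0.0173 in Met-Met, and the latter was 0.0555 without Control 2. Without the 3 libraries with high Gm26917 they were 0.0558 and 0.0543. Lrpprc rose in Met-Met (0.45, adjusted p = 0.0158), with 0.32 as deposited (adjusted p = 0.14). Tfb1m, an rRNA methyltransferase, rose in Met (0.42) with an adjusted p of 0.0499, which was up to 0.138 without any 1 of 9 libraries, all but Control 3, Met 2 and Met-Met 1. Of the 7 tested regulators of nuclear respiratory genes, limma called 0 against Control in either group at an adjusted or an unadjusted p under 0.05. Yy1 was called lower in Met-Met than in Met (−0.26), with an adjusted p of up to 0.116 without any 1 of 10 libraries, all but Met 4 and Met-Met 3. Enzymes of the tricarboxylic acid cycle rose in 3 of 13 cases in Met, among them Dld, the dehydrogenase subunit shared by several complexes (0.50, adjusted p = 0.0065). They rose in 4 of 13 cases in Met-Met, among them Idh3a, a subunit of NAD-dependent isocitrate dehydrogenase (0.60, adjusted p = 0.00858). Further calls were Idh3b and Mdh2 in Met and Dld and Mdh2 in Met-Met. Idh3b lost its call without Control 2 (0.0542), and Mdh2 lost it without any 1 of Control 1 to 4 or Met 1 to 3 in Met (0.0509 to 0.111) and without Control 2, Met-Met 1 or Met-Met 4 in Met-Met (0.0504 to 0.0569). As deposited, Idh3b and Mdh2 were below 0 in Met, at −0.04 and −0.02. On that scale Dld gave 0.20 in Met (adjusted p = 0.316) and Idh3a 0.47 in Met-Met (adjusted p = 0.07).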

How the data were processed

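Libraries were made from total RNA of whole mammary glands, per the labels, 4 in each of 3 groups. The authors deposited FPKM per transcript for each library; HISAT2 2.0.4, Bowtie2 2.2.8 and StringTie 1.3.1 are listed in the submitters' processing notes, with the builds GRCm38 and mm9 and no role for either. FPKM of a gene's transcripts were summed, and a divisor for each library was the median, over genes, of its ratio to the mean library. No read counts were at hand, so no count test was used and depth and its precision are unknown. The 11809 of 21956 genes whose mean reached 1 FPKM were fitted as log2(FPKM + 1) with limma 3.58.1 (R 4.3.3), 3 group means over 12 libraries and an intensity trend. Fold changes are on that scale and understate those of low genes. Every adjusted p is limma's after Benjamini-Hochberg adjustment over all genes tested, with a threshold of 0.05, two-sided. The fit was run on simulated data with independent noise per gene and 200 changed genes in each of 5 runs. The simulation held no differences shared across a library, such as those in B cell markers, so it cannot speak to them. Groups are said not to overlap where the lowest library of one is above the highest of the other.

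The members, gene lists and tests were chosen with earlier results of these data known. Genes named are the 3 nuclear members with the smallest p among those called per complex and comparison, all mtDNA genes, the tissue isoforms, and up to 3 called genes of each list. Other members are given by value to complete a group. Alternatives tried were FPKM as deposited, quantile normalization, a pseudocount of 0.1, no filter, a minimum mean of 5 FPKM, fitting only the 8 libraries compared, the replicate block, the highest transcript per gene, an adipocyte covariate, and leaving out the 3 libraries with high Gm26917, the 6 with lymphocyte markers, or each library in turn. Figures and motif counts used Python 3.11.15.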

Additional observations from a re-analysis of the deposited data

Results flagged for a closer look

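In 11 of 108 groups of 4 libraries that were checked over the named values, 1 library stood far from the other 3, where chance gives about 1 in 20 groups. All values are scaled FPKM. Control 4 was flagged as high for 6 of the mtDNA genes from mt-Co1 to mt-Nd4, though not for mt-Atp8 or mt-Nd3 among them. It had 8485 for mt-Atp6 (5489 to 5728 in Control 1 to 3), 8267 for mt-Co1 (6669 to 6876), 4953 for mt-Co2 (3141 to 3278), 4495 for mt-Co3 (3052 to 3255), 2956 for mt-Nd4 (2257 to 2323) and 2678 for mt-Nd4l (1642 to 1797). Met 4 was low for mt-Atp6, at 6722 against 10491 to 10617 in Met 1 to 3, and for mt-Co3, at 4236 against 6398 to 6727. Met-Met 4 was high for mt-Co1, at 8216 against 6959 to 7123, and for mt-Co2, at 4311 against 3608 to 3685. Cox8b was low in Met 3, at 6.37 against 9.75 to 9.91. The mtDNA genes share transcripts, so these flags are not independent of each other. Control 4 had the lowest B cell marker mean of the Control group and Met 4 the highest of the Met group. On the log2(FPKM + 1) scale, that mean was 0.221 in Met-Met 4, 0.133 in Met-Met 2 and 1.44 in Met-Met 1 and 3. The part of this in the values was not tested.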

How the results depend on the processing

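Depth is unknown, the members share 12 libraries, and most counts move with the scaling, so the calls describe these libraries on a scale set to their common median. With FPKM as deposited, nuclear members called higher numbered 5 and 3 in the comparisons of Met and Met-Met with Control and 5 between Met-Met and Met, and 2 were lower in the first and 2 in the last of these. The nuclear medians were 0.00062, 0.099 and 0.13, the last with its sign turned, and the mtDNA medians were 0.22 (Met against Control) and −0.26 (Met-Met with Met), with 1 and 0 mtDNA genes higher than Control. Sums as deposited were 7450.2 in Control and 7639 in Met for nuclear members, 2152 and 2272 for complex I, 846 and 906 for complex III, 2072 in Control for complex IV, and 2381 and 2374 for complex V. Of 118 named values, 59 lost their call with the sign kept and 13 turned sign as deposited, and 34 and 14 after quantile normalization. As deposited, signs turned for Coa3 (−0.0096), Cox4i2 (−0.14), Idh3b (−0.044), Mdh2 (−0.023), Timmdc1 (−0.026), mt-Nd2 (−0.21) and mt-Nd5 (−0.066) between Met and Control. Between Met-Met and Control they turned for mt-Co1 (−0.10), mt-Co2 (−0.047), mt-Co3 (−0.076), mt-Nd4 (−0.019) and mt-Nd4l (−0.053), and between Met-Met and Met for mt-Nd5 (0.17).

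With quantile normalization, 15, 7 and 1 nuclear members were higher in the 3 comparisons (medians 0.15 and 0.071 against Control), and 1 and 0 mtDNA genes were higher than Control and 2 lower in Met-Met than in Met (medians 0.043 for Met against Control, 0 between Met-Met and Met). Signs turned for mt-Co1 (−0.094), mt-Co2 (−0.091), mt-Cytb (−0.14), mt-Nd2 (−0.12), mt-Nd5 (−0.080) and Ndufa4l2 (0.16) between Met and Control, for mt-Co1 (−0.094), mt-Co2 (−0.067) and mt-Co3 (−0.16) between Met-Met and Control, and for mt-Co2 (0.024), mt-Cytb (0.26), mt-Nd1 (0.20), mt-Nd5 (0.21) and mt-Nd6 (0.049) between Met-Met and Met. With the adipocyte covariate, 0 nuclear and 0 mtDNA genes were called higher and 0 nuclear lower against Control. The covariate did not overlap between Control and the other groups, so this fit can hardly separate it from the groups. The nuclear medians were 0.57 (Met) and 0.50 (Met-Met), and the mtDNA median in Met-Met was 0.27. Signs turned for Cox4i2 (−0.33 in Met, −0.32 in Met-Met) and mt-Nd6 (0.47 in Met, 0.27 in Met-Met), for mt-Atp6 (0.21), mt-Atp8 (0.43) and mt-Nd3 (0.23) in Met-Met, and for mt-Nd5 (0.030) between Met-Met and Met. For all of these the cause was not tested.

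Without the 6 libraries with lymphocyte markers, which leaves 1 Control library, 0 nuclear and 0 mtDNA genes were called higher and 0 nuclear lower against Control. Between Met-Met and Met 1 nuclear and 0 mtDNA genes were lower. The mtDNA medians were 0.27 in Met and −0.19 in Met-Met. Signs turned for Cox4i2 in Met (−0.0071), for mt-Co1 (−0.12), mt-Co2 (−0.31), mt-Co3 (−0.230), mt-Nd4 (−0.088), mt-Nd4l (−0.29) and Ndufa4l2 (−0.041) in Met-Met against Control, and for mt-Nd5 (0.0065) between Met-Met and Met. With no filter, so with more genes tested, 1 mtDNA gene was higher in Met, 0 in Met-Met, and 0 were lower in Met-Met than in Met. Beside these counts stood 8.61%, 6.56% and 3.37% of all genes. With the 8 libraries of a comparison alone, 6 mtDNA genes were higher in Met, beside 11.2% of all genes. Of nuclear members, 1 was lower in Met-Met than in Control and 2 lower in Met-Met than in Met, beside 10.6% and 3.11%. Without the 3 libraries with high Gm26917, 0 mtDNA genes were higher in Met-Met than in Control, where 9.35% of all genes were. In that fit mt-Nd5 gave 0.080 for Met-Met against Met, and 18 of 118 named values lost their call, with adjusted p-values of 0.0543 to 0.173 (mt-Atp8 and mt-Co2 in Met, mt-Nd1 in Met-Met, mt-Co1 between Met-Met and Met, and 14 of nuclear genes, among them Slirp, Cox19 and Cox7a2l). With a mean of at least 5 FPKM, which leaves Cox7a1 out, 0 nuclear members were lower in Met, where 10.2% of all genes were.

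The replicate numbers do not pair the libraries: same-numbered libraries of different groups had correlations of −0.41 to 0.17 in their deviations from the group means, and 1 of 12 correlated best with its own number. With the replicate block, 6 mtDNA genes were higher in Met and 0 in Met-Met, beside 9.76% and 7.71% of all genes. Lower in Met-Met than in Met were 0 mtDNA and 2 nuclear genes, beside 3.34%. Of 118 named values, 89 kept their direction and side of the threshold and 29 lost the call. Leaving out each library in turn, nuclear members called higher numbered 26 to 41, 12 to 35 and 0 to 1 in the 3 comparisons, and those called lower between Met-Met and Met 2 to 8. Over all genes 8.59% to 14.8%, 6.11% to 12.4% and 2.77% to 9.44% were called higher, and 2.87% to 10.1% lower between Met-Met and Met. The mtDNA genes called higher numbered 6 to 10 in Met and 0 to 1 in Met-Met, and those called lower between Met-Met and Met 0 to 8. Fold changes that turned sign in some of these spanned −0.077 to 0.17 (Met), −0.054 to 0.17 (Met-Met) and −0.085 to 0.16 (Met-Met against Met) for Cox4i2, −0.61 to 0.032 for Cox8b, −0.011 to 0.07 for mt-Nd2 and −0.042 to 0.027 for mt-Nd5 between Met-Met and Met, and −0.13 to 0.030 for mt-Nd6 and −0.12 to 0.014 for Ndufa4l2 between Met and Control. Between Met-Met and Control they were −0.21 to 0.018 for mt-Atp6, −0.18 to 0.065 for mt-Atp8, −0.020 to 0.11 for mt-Co1, −0.029 to 0.19 for mt-Co3 and −0.085 to 0.054 for mt-Nd3.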
